A study of Homo sapiens with 6 samples.

Results

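The genes described here are 5 components of the DNA mismatch repair machinery, MSH6, MSH3, MLH3, PMS1 and PMS2, measured by RNA-seq in 22Rv1 cells, a human prostate carcinoma line. They were chosen by symbol, and all 5 were found among the 29804 gene symbols of the count table. The libraries came from 3 groups of 2 biological replicates each, and every group carried the wild type genotype of the line. WT cells were parental cells, left untreated and taken at week 0. AM (age matched) cells were grown for 6 weeks without drug, and 6WP cells were grown for the same 6 weeks with 1 µg/ml of phleomycin, a radiomimetic glycopeptide that breaks both DNA strands, given on each week day. The 6WP cells are the population that survived the drug, so selection of cells and regulation within cells cannot be told apart, and in a bulk sample neither can fewer expressing cells and less RNA per cell.

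Mismatch repair removes base mismatches and small insertion or deletion loops left by DNA polymerase. MutS-type proteins recognise the error and MutL-type proteins then direct removal of the new strand. MSH6 and MSH3 are alternative MutS subunits that bind the same partner, whose transcript is not described here. The MSH6 complex recognises mismatches and short loops, and the MSH3 complex recognises larger loops, such as those that form in dinucleotide and tetranucleotide repeats. PMS2, MLH3 and PMS1 are alternative MutL subunits that likewise share a partner. PMS2 carries the endonuclease used in most repair, MLH3 acts mainly in meiotic recombination and PMS1 has no well defined role in repair. 22Rv1 is known as a microsatellite-unstable line, which is the usual sign of defective mismatch repair.

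Total counts ranged from 21222201 to 35311945 per library, and 3 counts, taken as the smallest detectable amount, corresponded to between 0.085 and 0.141 counts per 1000000 (CPM). These floors cover counting error only. The 6WP libraries differed more from each other than the other replicates did, with a median SD of a gene of 0.196 on the log2 scale against 0.0854 in WT and 0.0911 in AM cells. All 6 luminal prostate markers examined (KLK2, KLK3, KRT8, KRT18, TMPRSS2 and FOLH1) were expressed, and their summed level was between 799 and 1262 CPM. KRT5 of basal epithelium and PTPRC of leukocytes had 0 counts in every library, while KRT14, COL1A2 and PECAM1 had at most 2 counts, and the stromal genes COL1A1 and ACTA2 had 34 to 55 and 85 to 158 counts. In AM against WT cells KRT8, TMPRSS2 and FOLH1 were lower and KLK2 was higher (edgeR, adjusted p between 0.00759 and 0.0360). In 6WP against AM cells TMPRSS2 and FOLH1 were higher and KLK2 lower (adjusted p between 0.00670 and 0.0347). Each of these calls was lost without AM replicate 1 or AM replicate 2. KLK3 and KRT18 passed in no comparison (edgeR adjusted p between 0.115 and 0.889). Of all tested genes, 7.74% were higher and 9.93% lower in AM against WT cells. In 6WP against AM cells 11.7% were higher and 9.68% lower. Some luminal markers thus moved, in mixed directions, between the same groups as MSH6, and their part in the results was not tested.

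The regions before the starts of the members differ in layout and sequence. PMS2 and PMS1 each start close to a gene transcribed away from them on the opposite strand, with a gap of 223 bases between the starts of the canonical transcripts for PMS2 and of 111 bases for PMS1. Motifs were searched on both strands of the RefSeq windows from 250 bases before to 50 bases after each start (GRCh38.p14). They were the E2F motif (TTTGGCGC or TTTCGCGC), the GC box (GGGCGG), the CCAAT box (CCAAT) and the CREB site (TGACGTCA), and capitals mark them in the stretches below, which read 5′ to 3′ on the strand of the member. For MSH6, PMS2 and MLH3 the part of the window outside every annotated exon is shown, as the windows richest in GC boxes, with a CREB site and with no match.
MSH6, plus strand, chr2:47782895-47783081: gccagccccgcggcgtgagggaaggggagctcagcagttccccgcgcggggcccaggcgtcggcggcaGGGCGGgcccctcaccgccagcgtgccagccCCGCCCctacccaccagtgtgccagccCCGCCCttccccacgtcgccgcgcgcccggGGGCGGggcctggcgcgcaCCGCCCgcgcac
PMS2, minus strand, chr7:6009131-6009254: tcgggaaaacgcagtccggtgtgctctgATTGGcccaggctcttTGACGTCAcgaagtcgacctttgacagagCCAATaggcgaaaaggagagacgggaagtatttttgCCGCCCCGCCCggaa
MLH3, minus strand, chr14:75051533-75051717: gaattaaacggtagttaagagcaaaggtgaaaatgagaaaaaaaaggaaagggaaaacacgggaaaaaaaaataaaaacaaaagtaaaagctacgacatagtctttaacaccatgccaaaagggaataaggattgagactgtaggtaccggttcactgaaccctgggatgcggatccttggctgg

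MSH3 was the only member with an E2F match, 1 to each form of the motif, on opposite strands and overlapping, and its window also held 4 GC boxes. Annotated exons covered 248 of the 250 bases before the MSH3 start and all 250 before the PMS1 start. Neither stretch is shown for this reason. Either form of the E2F motif was present in 1.15% of the 35116 RefSeq windows of the same length. The PMS2 window held 3 CCAAT boxes, 2 overlapping GC boxes and 1 CREB site, which 1.85% of windows held. The window of MSH6 (chr2:47782895-47783194) held 5 GC boxes and 1 CCAAT box, and that of PMS1 (chr2:189784200-189784499) 2 CCAAT boxes and 1 GC box. GC boxes and CCAAT boxes occurred in 45% and 34.6% of all windows. The MLH3 window (chr14:75051418-75051717) had no match to any of these motifs and the lowest GC content of the 5 members, at 51% against 61.7% to 78%. These matches describe the letters in each window and do not measure binding.

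Expression of the 5 members spanned a wide range. To compare genes, CPM was divided by the length of the canonical GENCODE transcript in kilobases. MSH6 had the highest level per length, with a mean over the 6 libraries of 21.0 CPM per kilobase and a range of 15.5 to 28.1. It was followed by PMS1 at 9.17 (7.71 to 10.7), PMS2 at 4.48 (3.98 to 5.37) and MLH3 at 2.38 (1.94 to 2.69). MSH3 came last, at 0.262 CPM per kilobase (0.166 to 0.357). The order was the same in all 6 libraries, and the ranges of no 2 neighbours in this order overlapped. It depends on the lengths used, such as 5093 bases for PMS2 and 7820 for MLH3, and the transcripts expressed were not determined. The place of PMS2, and its percentile given below, also depend on how reads were divided with its near-identical pseudogenes. The 5 listed ones together held 770 to 1328 counts per library, against 453 to 776 for PMS2. In CPM, PMS2 and MLH3 were close in WT cells (means 20.5 and 19.9). PMS2 exceeded PMS1 in 6WP replicate 2 (27.3 and 25.4 CPM). Among 12787 tested genes with a transcript length, MSH6 lay at percentile 74.1, PMS1 at 54.7, PMS2 at 38.9, MLH3 at 27.9 and MSH3 at 6.4.

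**Figure D1:**
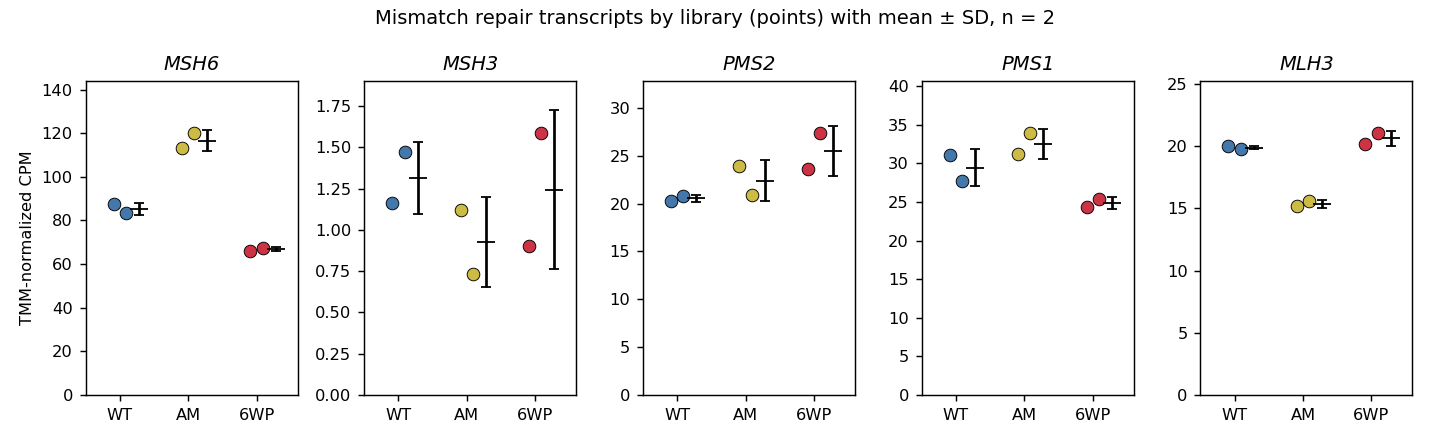
TMM-normalized CPM of each member (vertical axes start at 0 and differ between panels) in the WT, AM and 6WP libraries. Points are single libraries and bars the mean ± SD of 2 libraries. MSH6 was highest in AM and lowest in 6WP cells, MLH3 was lowest in AM cells, and MSH3 lay under 1.6 CPM in every library.

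MSH3 was near zero counts in every library. The gene occupies the plus strand of chromosome 5 between 80654652 and 80876815 and has 24 exons in its canonical transcript of 4443 bases. The WT libraries held 26 and 32 counts, the AM libraries 26 and 25, and the 6WP libraries 25 and 45. No member had 0 counts, and MSH3 was above the floor of 3 counts throughout. Mean CPM of MSH3 was 1.32 ± 0.219 for WT, 0.927 ± 0.271 for AM and 1.24 ± 0.482 for 6WP cells (SD, 2 libraries per group). The highest library, 6WP replicate 2, was paired within its group with one of the lowest. From counting error alone, the exact 95% Poisson interval of that library was 32.8 to 60.2 counts, and that of 6WP replicate 1 was 16.2 to 36.9. MSH3 did not pass the test in any comparison. Its log2 fold change was -0.08 for 6WP against WT (95% interval -0.97 to 0.82, edgeR adjusted p = 0.936), 0.45 for 6WP against AM (-0.46 to 1.36, adjusted p = 0.435) and -0.53 for AM against WT cells (-1.45 to 0.40, adjusted p = 0.377). The standard errors were 0.39 to 0.40, so the intervals are wide and changes of MSH3 within them are not excluded.

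Genes on either side of MSH3 were also examined, a choice made after the MSH3 counts were seen. Within 1000000 bases of the gene 15 symbols were examined, MSH3 included. MTX3, SERINC5, ZFYVE16, ZCCHC9 and SSBP2 had more than 100 counts in every library, with ZFYVE16, an endosomal protein gene, at 878 to 1363 and SSBP2, a single-stranded DNA binding protein gene, at 892 to 1704. Counts under 100 in every library were found for 8 symbols, which besides MSH3 were CMYA5, THBS4, SPZ1, ANKRD34B, RASGRF2, CKMT2 and ACOT12. RASGRF2, the next gene downstream, had at most 6 counts. Low and high transcripts were thus interspersed on both sides of MSH3.

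The close neighbours of PMS2 and PMS1 were more abundant than these members in every library. AIMP2, a scaffold protein of the aminoacyl-tRNA synthetase complex, lies next to PMS2 and had 14.2 to 25.5 times its level per kilobase. This ratio shares the uncertainty of the PMS2 counts. ORMDL1, a regulator of sphingolipid synthesis, lies next to PMS1 and had 2.98 to 4.33 times its level. Neither neighbour passed the test in any comparison (edgeR, adjusted p between 0.128 and 0.991). The ratio of ORMDL1 to PMS1 was 3.15 and 2.98 for WT, 3.10 and 3.13 for AM and 4.33 and 3.84 for 6WP cells. It was therefore higher in both 6WP libraries than in the other 4, with PMS1 lower there and ORMDL1 at 71.7 and 66.4 CPM against 56.3 to 72.4 in WT and AM cells.

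**Figure D2:**
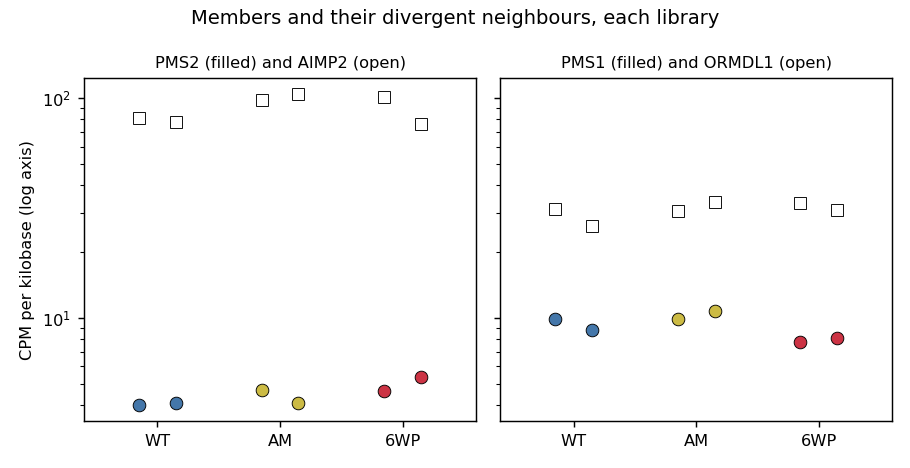
CPM per kilobase (log axis) of PMS2 and PMS1 (filled circles) and of their neighbouring genes on the opposite strand, AIMP2 and ORMDL1 (open squares) in each of the 2 libraries per group. AIMP2 lies between 14.2 and 25.5 times above PMS2, whereas ORMDL1 lies between 2.98 and 4.33 times above PMS1.

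MSH6, the most abundant member, was the one with the largest change that passed the test. It lies on chromosome 2, where its canonical transcript of 4265 bases and 10 exons runs from 47783145 to 47806953 on the plus strand. The WT libraries had 87.4 and 83.3 CPM, the AM libraries 113 and 120.0, and the 6WP libraries 66.2 and 67.6. The groups did not overlap, and the AM libraries were the highest and the 6WP libraries the lowest. From 117 ± 4.79 CPM (SD, n = 2) in AM to 66.9 ± 0.952 CPM in 6WP cells, MSH6 fell to 0.574 times its level (log2 fold change -0.80, standard error 0.10, 95% interval -1.04 to -0.56, edgeR adjusted p = 0.00383). In AM cells it was 1.37 times the WT level of 85.3 ± 2.92 CPM (log2 fold change 0.45, standard error 0.10, 95% interval 0.21 to 0.69, adjusted p = 0.0240). The difference between 6WP and WT cells was -0.35 (standard error 0.10, 95% interval -0.59 to -0.11) and did not pass after adjustment (unadjusted p = 0.00905, edgeR adjusted p = 0.103). The call in 6WP against AM cells was lost without AM replicate 1 (-0.84, adjusted p = 0.0521) or AM replicate 2 (-0.76, adjusted p = 0.0614). That in AM against WT cells was lost without any one of the 4 libraries compared, with values of 0.39 to 0.49 and adjusted p between 0.131 and 0.218. The 3' end of MSH6 meets that of FBXO11, an F-box ubiquitin ligase gene on the opposite strand, whose exons overlap 530 bases of the MSH6 transcript. FBXO11 had 25.8 to 33.6 CPM and did not pass in any comparison (log2 fold changes between -0.09 and 0.10, adjusted p between 0.675 and 0.991).

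MLH3 had its lowest values in AM cells and was higher in 6WP than in AM cells. The gene occupies chromosome 14, 75013769 to 75051532, on the minus strand, and its canonical exons overlap no exon annotated for another gene. WT cells had 20.0 and 19.8 CPM, AM cells 15.2 and 15.6, and 6WP cells 20.2 and 21.0. The AM libraries lay under all others, and the replicates of each group were close. MLH3 was 1.34 times higher in 6WP than in AM cells, a log2 fold change of 0.42 (standard error 0.13, 95% interval 0.13 to 0.71, edgeR adjusted p = 0.0479). This call was close to the threshold and was kept in 3 of 12 alternatives, over which the adjusted p ranged from 0.0110 to 0.243. It was lost, among others, without any one of WT replicate 1, WT replicate 2, AM replicate 1 and AM replicate 2, with values of 0.42, 0.40, 0.40 and 0.45. In AM against WT cells the log2 fold change was -0.37 (95% interval -0.66 to -0.08, adjusted p = 0.0785), which passed without 6WP replicate 1 (-0.38, adjusted p = 0.0108) or 6WP replicate 2 (-0.37, adjusted p = 0.0126), and in 6WP against WT cells 0.05 (-0.24 to 0.34, adjusted p = 0.849). Its neighbours EIF2B2, a subunit of a translation initiation factor, and ACYP1, an acylphosphatase, did not pass in any comparison (adjusted p between 0.0844 and 0.822). They had 33.2 to 41.9 and 5.35 to 11.5 CPM.

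PMS1 had its lowest values in 6WP cells, a difference that did not pass the test. The gene spans 189784085 to 189877629 on the plus strand of chromosome 2. WT cells had 31.2 and 27.7 CPM, AM cells 31.2 and 33.9, and 6WP cells 24.3 and 25.4. Both 6WP libraries lay under the other 4. Between 6WP and AM cells PMS1 differed by -0.39 on the log2 scale (standard error 0.12, 95% interval -0.68 to -0.10), with an unadjusted p = 0.0140 and an edgeR adjusted p = 0.0591. In this comparison PMS1 also did not pass in 8 of 12 alternatives, such as the edgeR fit to the 2 groups compared (-0.40, adjusted p = 0.107). Among the alternatives that passed, the Wald test of DESeq2 gave an adjusted p = 0.0389. With 1 library left out in turn, the value lay between -0.45 and -0.33. For 6WP against WT cells the value was -0.24 (-0.53 to 0.04, adjusted p = 0.295), and for AM against WT cells 0.15 (-0.14 to 0.43, adjusted p = 0.433; 0.0704 to 0.24 with 1 library left out).

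PMS2 had its highest mean in 6WP cells, but no difference passed the test. The gene spans 5970925 to 6009130 of chromosome 7, minus strand. WT cells had 20.3 and 20.8 CPM, AM cells 23.9 and 20.9, and 6WP cells 23.6 and 27.3. The 6WP libraries lay above both WT libraries but overlapped the AM libraries. The log2 fold changes were 0.31 for 6WP against WT (95% interval -0.01 to 0.63, edgeR adjusted p = 0.236), 0.19 for 6WP against AM (-0.13 to 0.51, adjusted p = 0.351) and 0.12 for AM against WT cells (-0.20 to 0.45, adjusted p = 0.562). Leaving out 1 library moved the latter 2 values to between 0.0515 and 0.29 and between 0.0147 and 0.21. PMS2 has many near-identical pseudogene copies, and its counts are uncertain to the extent that reads were divided among them. The 5 listed pseudogenes PMS2CL, PMS2P1, PMS2P3, PMS2P4 and PMS2P5 together held 770 to 1328 counts per library, against 453 to 776 for PMS2, and PMS2P1 alone held 606 to 1022. Summed with these, PMS2 had a log2 fold change of 0.07 for 6WP against WT and -0.08 for 6WP against AM cells, so the direction of the latter turned.

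**Figure D3:**
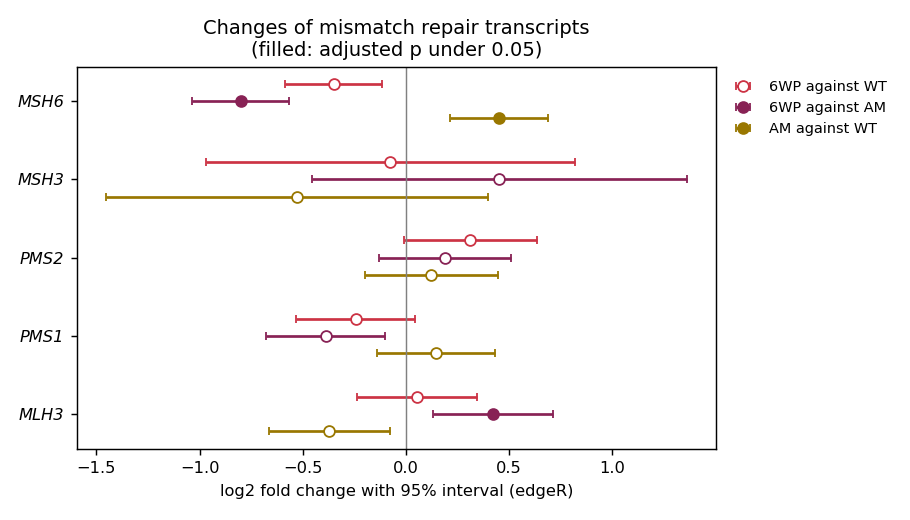
Log2 fold change of each member in the 3 comparisons (points) with its 95% interval from edgeR (bars); filled points passed an adjusted p of 0.05. The intervals of MSH3 are the widest, and the filled points are MSH6 in 6WP against AM (-0.80) and AM against WT (0.45) and MLH3 in 6WP against AM (0.42).

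Counted together, 2 of the 5 members passed in 6WP against AM cells, MSH6 lower and MLH3 higher. Of all tested genes 21.3% passed there, 11.7% higher and 9.68% lower. In AM against WT cells 1 of 5 passed (MSH6, higher), against 17.7% of all genes, 7.74% higher and 9.93% lower. In 6WP against WT cells edgeR called 0 of 5, against 3.00% of all genes, 1.63% higher and 1.37% lower. DESeq2 also called 0 there, while 1 member had an unadjusted p under 0.05 with each tool (MSH6 with edgeR, where 22.4% of all tested genes had one). Groups without overlap were seen for 4 members in 6WP against WT, 3 in 6WP against AM and 5 in AM against WT cells, where 50.7%, 62.3% and 73.8% of all tested genes had them. With 5 members, these counts differ from the backgrounds by fewer than 2 genes. The median log2 fold change of the members was -0.08 in 6WP against WT (all tested genes 0.01), 0.19 in 6WP against AM (0.05) and 0.12 in AM against WT cells (-0.0023). The comparisons share libraries. The 2 members that passed in 6WP against AM cells, MSH6 and MLH3, had opposite signs. PMS1 had a negative value there and MSH3 and PMS2 positive ones, but these did not pass. The signs of MSH3 (-0.0285 without 6WP replicate 2) and PMS2 (-0.0786 summed with its pseudogenes) turned in an alternative.

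Ratios of levels were taken for 5 pairs of members, several of which reuse the same gene. How often pairs of other genes set both 6WP libraries apart was not counted. Among single tested genes, 50.7% had no overlap in 6WP against WT and 62.3% in 6WP against AM cells. Per kilobase, MSH6, a MutS subunit, exceeded PMS2, a MutL subunit, by a factor of 5.15 and 4.78 (WT), 5.66 and 6.87 (AM) and 3.35 and 2.95 (6WP), so both 6WP libraries were under all others. Between alternative MutL subunits, the ratio of PMS2 to PMS1 was 0.403 and 0.465 (WT), 0.474 and 0.381 (AM) and 0.602 and 0.667 (6WP), the highest values again being those of the 6WP libraries without overlap. The ratio of PMS1 to MLH3 was 3.86 and 3.47 (WT), 5.10 and 5.39 (AM) and 2.98 and 2.99 (6WP), highest in AM and lowest in 6WP cells. The ratio of PMS2 to MLH3 was 1.56 and 1.61 (WT), 2.42 and 2.05 (AM) and 1.80 and 2.00 (6WP), so the 6WP libraries lay between the other groups. For the alternative MutS subunits, the ratio of MSH6 to MSH3 was 78.5 and 59.0 (WT), 105 and 170 (AM) and 76.3 and 44.4 (6WP), and the WT and 6WP libraries overlapped. The ratios with PMS2 share the uncertainty of its counts, as its listed pseudogenes together held more counts than PMS2 in every library. The order of groups with the pseudogenes summed in was not examined. All these ratios of transcripts are given without a test and do not measure protein.

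Genes that act after mismatch recognition were mostly lower in 6WP than in AM cells. The list held 17 genes, and all were tested. They covered excision (EXO1, the exonuclease that degrades the mismatched strand), clamp and clamp loader (PCNA and RFC1 to RFC5) and protection of single strands (RPA1 to RPA3). Resynthesis (POLD1 to POLD4), ligation (LIG1) and a cofactor (HMGB1) were also covered. SSBP1, counted in the list, is a single-strand binding protein of mitochondria and not of nuclear repair. It did not pass in any comparison of the fit to all 6 libraries (edgeR adjusted p between 0.0733 and 0.519). In 6WP against AM cells 10 were lower: EXO1, PCNA, RFC2, RFC4, RFC5, RPA1, RPA2, POLD2, POLD3 and LIG1. POLD4, the smallest subunit of DNA polymerase delta, was higher, and 6 did not pass (21.3% of all tested genes passed in either direction, 9.68% lower). LIG1 fell by 1.47 on the log2 scale (standard error 0.23, edgeR adjusted p = 0.00651), PCNA had a log2 fold change of -1.36 (0.18, adjusted p = 0.00396) and EXO1 one of -1.29 (0.34, adjusted p = 0.0317), while POLD4 had 0.72 (0.17, adjusted p = 0.0226). In AM against WT cells PCNA, RFC2, RFC4, RFC5, RPA2, POLD3 and LIG1 were higher, with values between 0.43 for POLD3 and 0.86 for LIG1, and 0 were lower. Here 10 did not pass, among them POLD4 at -0.45 (adjusted p = 0.0991). In 6WP against WT cells edgeR called 0 of 17, with values between -0.64 and 0.27, but 11 were lower without 6WP replicate 1, 2 without 6WP replicate 2 and 1 with the Wald test of DESeq2. The median of the list was -0.67 in 6WP against AM and 0.44 in AM against WT cells. The number lower in 6WP against AM cells was 2 without AM replicate 1 and 0 without AM replicate 2. The 7 higher in AM against WT cells became 16 without either 6WP library, and 3 when scaled by library size only, where RFC4, RPA2, POLD3 and LIG1 were not called. POLD4 (0.51 to 0.98) and EXO1 (-1.35 to -1.23) were not called in 6WP against AM cells without any one WT or AM library.

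**Figure D4:**
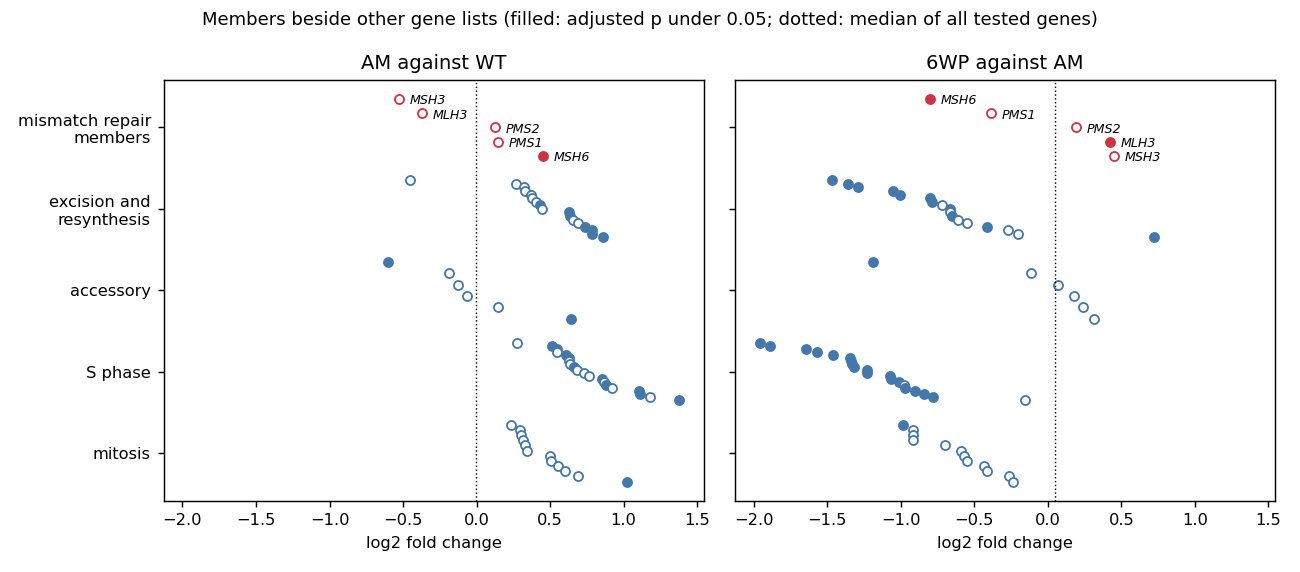
Log2 fold changes of the 5 members and of the tested genes of 4 other lists in AM against WT and 6WP against AM cells, which share the AM libraries. Each point is 1 gene, filled where the adjusted p was under 0.05, and dotted lines mark the median of all tested genes. S phase genes lie right of 0 in the first panel and left of 0 in the second, and MSH6 lies on the same sides.

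S phase genes moved between the same groups. Of 20 such genes, 18 were lower in 6WP than in AM cells (MCM2, MCM3, MCM4, MCM5, MCM6, MCM7, CDC6, CDC45, GINS1, GINS2, RRM1, RRM2, TYMS, E2F1, E2F2, UHRF1, CCNE2 and CDC25A), with values from -1.96 for CDC6 to -0.78 for MCM5. Of all tested genes 9.68% were lower there. In AM against WT cells MCM2, MCM3, MCM4, MCM5, MCM6, CDC6, GINS2, TYMS, UHRF1 and CDC25A were higher, by 0.51 for MCM3 to 1.38 for TYMS, and in 6WP against WT cells MCM4 was lower (-0.72, edgeR adjusted p = 0.0464). These were 10 and 1 of the 20 genes, where 7.74% of all tested genes were higher and 1.37% lower. In 6WP against WT cells the count of S phase genes that were lower became 19 without 6WP replicate 1, 6 without 6WP replicate 2, 5 with the Wald test of DESeq2, and 0 without any one WT or AM library. The count of 18 became 4 without AM replicate 1 and 2 without AM replicate 2. Each call in AM against WT cells given here for the members, S phase, excision, mitotic, accessory and luminal genes was lost without any one of the 4 libraries compared, and MCM4 in 6WP against WT cells without any one WT or AM library. The summed level of the list was 3103 and 2845 CPM (WT), 4738 and 4999 (AM) and 2643 and 1710 (6WP). MSH6 followed the same order of groups, but its 6WP libraries were nearly equal (66.2 and 67.6 CPM) where those of the list were not. MLH3 had the opposite order of AM and WT cells. Among 12 mitotic genes, KIF11 was lower in 6WP than in AM cells (-0.98) and MKI67 higher in AM than in WT cells (1.03), and the sum of the list was 1581 CPM in 6WP replicate 1 and 692 in 6WP replicate 2. KIF11 was not called without any one WT or AM library. The mitotic calls were 1 of 12 lower in 6WP against AM and 1 of 12 higher in AM against WT cells. Of all tested genes, 9.68% were lower and 7.74% higher there. With 12 genes, these counts of calls do not set the mitotic list apart from other genes. The part of these cell cycle genes in the changes of MSH6 and the excision genes was not tested.

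The remaining genes connected with mismatch repair gave 3 calls, all among 6 accessory genes. In 6WP against AM cells 1 of the 6 was called, against 21.3% of all tested genes. In AM against WT cells 1 was higher and 1 lower, against 7.74% and 9.93% of all tested genes. With 6 genes, these counts do not set the list apart from other genes. MSH4 and MSH5, MutS relatives that act in meiosis, had at most 3 counts in any library and were not tested. Among 6 accessory genes, MCM8, a helicase of recombination repair, was lower in 6WP than in AM cells (-1.19, edgeR adjusted p = 0.00587) and higher in AM than in WT cells (0.64, adjusted p = 0.0413). The former was lost without AM replicate 1 (-0.97, adjusted p = 0.0690). WRN, a helicase on which microsatellite-unstable cells are known to depend, was lower in AM than in WT cells (-0.60, adjusted p = 0.0322). SETD2, the methyltransferase whose histone mark is bound by MSH6, did not pass (adjusted p between 0.229 and 0.755), nor did FAN1, MCM9 or HDAC6 (adjusted p between 0.201 and 0.778).

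The genes whose profile was most like that of each member were found by Pearson correlation of log2 CPM over the 6 libraries, among 12035 genes with a mean of at least 1 log2 CPM (12036 for MSH3). They were CACYBP (r = 0.998) and EIF3B (0.997) for MSH6, FLJ31306 (0.994) and ZNF160 (0.993) for MSH3, CDH6 (0.998) and SOBP (0.997) for MLH3, NUP35 (0.996) and HSPB11 (0.994) for PMS1, and LINC00630 (0.989) and CABP4 (0.983) for PMS2. CDH6, a cadherin, had the same order of groups as MLH3 but larger changes, as r does not compare their size. It had 72.6 and 68.3 (WT), 24.6 and 30.4 (AM) and 74.9 and 86.9 (6WP) CPM. The means of MLH3 were 19.9 (WT), 15.4 (AM) and 20.6 (6WP) CPM. These values of r rest on 6 libraries in 3 groups and a search over all these genes, and they are given as a description with no test.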

How the data were processed

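RNA-seq counts of 6 libraries were analysed. According to the methods and the submitters' processing notes, the authors aligned 100 bp single end reads to hg38 with STAR 2.5.3a, assembled transcripts with StringTie 1.3.3 and named featureCounts 1.5.3 among their tools. The deposited values are unnormalized read counts, listed by gene symbol. The annotation and strand setting of the counting are not given in the sources used here. No column was left out and replicates were not pooled.

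Genes were kept by filterByExpr with the 3 groups (14672 of 29804, all 5 members included), scaled with TMM factors and fitted for all 6 libraries with the quasi-likelihood test of edgeR 4.0.16 in R 4.3.3. Tests are two-sided, with Benjamini-Hochberg adjustment over all tested genes and a threshold of 0.05. Standard errors were derived from the F statistic of each contrast, and 95% intervals use the degrees of freedom of the fit. An exact permutation test of 2 against 2 libraries cannot give p below 0.333. The steps were tested on simulated counts. Positions and transcript lengths are from GENCODE v44 on GRCh38, the build of the authors' alignment, and promoter windows from RefSeq.

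Members and gene lists were chosen with earlier results of these data known. Named genes are the members, list genes with an adjusted p under 0.05 in any comparison, the neighbours, and per member the 2 most correlated genes. Markers at most at a few counts and genes within 1000000 bases of MSH3 were named after their values were seen. Some markers and neighbours are not reported here. Alternatives were DESeq2 size factors, library size only, no filter beyond 1 count, the Wald test of DESeq2 1.42.0, fits restricted to the compared groups, a replicate block, omission of single libraries, and for PMS2 the sum with its pseudogenes.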

Additional observations from a re-analysis of the deposited data

How the results depend on the processing

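Of 183 alternative values for the 5 members, 153 kept direction and side of the threshold. MLH3 in 6WP against AM cells lost its call with DESeq2 size factors (log2 fold change 0.39), no filter beyond 1 count (0.42), the Wald test of DESeq2 (0.39), a fit to the 2 groups compared (0.41) and a replicate block (0.42, adjusted p = 0.0657), while PMS1 passed with DESeq2 size factors (-0.42) and the Wald test (-0.42). MLH3 in AM against WT cells passed in the fit to 2 groups (-0.37). In that fit the numbers of genes called were 96 for 6WP against WT, 1309 for 6WP against AM and 6620 for AM against WT cells, and for 6WP against WT cells no filter gave 894 and DESeq2 1124 where the main count was 440.

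With libraries left out in turn, a lone sample being assumed to vary like the others, values in 6WP against AM cells lay between -0.85 and -0.76 for MSH6, 0.36 and 0.45 for MLH3, -0.45 and -0.33 for PMS1 (which passed without either 6WP library), 0.0515 and 0.29 for PMS2, and -0.0285 and 0.81 for MSH3. In 6WP against WT cells they lay between -0.39 and -0.32 for MSH6 (which passed without either 6WP library), between 0.18 and 0.40 for PMS2 (which passed without 6WP replicate 1), between -0.0035 and 0.0646 for MLH3 and between -0.56 and 0.25 for MSH3. In AM against WT cells they lay between 0.39 and 0.49 for MSH6, -0.41 and -0.36 for MLH3 (which passed without either 6WP library), 0.0704 and 0.24 for PMS1, 0.0147 and 0.21 for PMS2, and -0.84 and -0.24 for MSH3. Numbers of genes called lay between 0 and 3870 for 6WP against WT, 116 and 6807 for 6WP against AM, and 67 and 6654 for AM against WT cells, the highest without a 6WP library. Direction turned, with no call on either side, for MSH3 in 6WP against WT cells without WT replicate 2 (0.10) or 6WP replicate 1 (0.25), for MSH3 in 6WP against AM cells (-0.0285) and MLH3 in 6WP against WT cells (-0.0035) without 6WP replicate 2, and for PMS2 in 6WP against AM cells when summed with its pseudogenes (-0.0786). The causes were not tested.

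The replicate block gave 393, 3069 and 2485 calls against 440, 3131 and 2593, and changed no call of a member besides MLH3. Libraries with the same number had deviations from the group mean that correlated at 0.0395 (WT and AM), 0.0873 (WT and 6WP) and -0.0206 (AM and 6WP). Whether libraries with the same number shared a culture or batch cannot be told from these values. Depth limits MSH3, whose counts were 25 to 45.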
